A study of Mus musculus with 10 samples.

Results

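The 29 genes described here encode enzymes of cholesterol synthesis, the proteins that regulate the sterol response element-binding proteins (SREBPs), and proteins that move, esterify or export cholesterol. They were taken by gene name from 2 expression tables of mouse mammary tumors, and all 29 were listed once in each table, among 23202 genes in the table of sorted macrophages and 19720 genes in the table of whole tumors. The mice carried the MMTV-PyMT transgene, which drives a viral oncogene in the mammary epithelium, on a background given as B6. All of them also carried floxed alleles of Cxcr4, a chemokine receptor gene. The group labelled cKO (B6:MMTV-PyMT;Cxcr4fl/fl;LysmCre) in addition carried Cre recombinase under the LysM promoter, which is active in myeloid cells. The controls (B6:MMTV-PyMT;Cxcr4fl/fl) were littermates with no Cre, so the floxed alleles and the oncogene were shared by both groups. Tumors were taken at an age of 15 weeks and were chosen in pairs of like size, though the partners are not named. Macrophages were sorted on F4/80 and CD11b after digestion of the tumor with collagenase D and DNase. Sorted macrophages were sequenced from 3 mice labelled cKO (725, 746 and 867) and 3 controls (706, 720 and 775). Whole tumors came from 2 mice labelled cKO (725 and 746) and 2 controls (706 and 720). Each library within a table is from a different mouse, and no drug or other treatment is named.

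Cholesterol is built from acetyl-CoA through mevalonate, isoprene units and squalene, which is closed into lanosterol and then trimmed to cholesterol. When the endoplasmic reticulum holds little sterol, SCAP escorts SREBP precursors to the Golgi, where proteases release the transcription factor that turns on the synthesis genes, and INSIG proteins hold SCAP back when sterol is plentiful. Macrophages take up lipid from dying cells, store the surplus as cholesterol esters, and export it through ABC transporters under control of the liver X receptors.

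Genes at the level of the weakly expressed members were often nearly missing from single libraries. Values are in CPM, counts per 1e+06 counts of listed genes in the library, and the steps between low values put the depth at 14.3 to 25.1 M reads (M, 1e+06) in the macrophage libraries and 34.2 to 53.4 M in the tumor libraries. Genes that averaged 2 to 5 CPM in the remaining libraries had under 3 reads in 6.48% to 28.8% of cases per macrophage library and 12.4% to 19.6% per tumor library, against at most 1.32% and 0.347% for genes at 10 to 20 CPM. A deeper library did not always have the lower share. Control macrophages of mouse 720 had 26.3% at 22.5 M reads, and macrophages of mouse 725, labelled cKO, had 8.64% at 20.3 M. The cause of these missing reads was not tested. Cxcr4 itself was at 77.1 ± 76.8 CPM in macrophages labelled cKO and 68.04 ± 61.6 CPM in control macrophages (SD, n = 3 each). In whole tumors it was at 47.9 and 57.6 CPM in libraries labelled cKO, against 29.8 and 33.4 CPM in controls, with no overlap. The libraries thus did not show loss of the targeted gene, and the groups are named by their labels throughout. The 12 macrophage markers were all present, with a summed level of 2521 to 3129 CPM in macrophages labelled cKO and 1232 to 2884 CPM in control macrophages, against 141 to 170.4 CPM in whole tumors. Lyz2, a check gene outside those 12, was low, at 4.55, 1.35 and 7.31 CPM in macrophages labelled cKO (725, 746 and 867). In control macrophages (706, 720 and 775) it was at 3.10, 0.134 and 3.44 CPM. The sorted libraries also held luminal epithelial transcripts, with 10 of 10 markers read and a summed level of 4351 to 5857 CPM, against 1796 to 2047 CPM in whole tumors. Cldn4 was the largest part, at 1646 to 2429 CPM in sorted libraries against 72.7 to 89.9 CPM in whole tumors. Krt8, Krt18, Krt19, Cdh1 and Cldn3 were also higher in every sorted library, and Epcam and Cldn7 overlapped. Elf5 (68.2 to 116 against 157 to 182 CPM) and Esrp1 (307 to 517 against 537 to 672 CPM) were lower in the sorted libraries. A pair of sorted libraries stood apart. Control 775 had the lowest macrophage marker sum, 1232 CPM, against 2521 to 3129 CPM in the other 5 libraries. The cKO library of mouse 867 had the highest sums of 7 fibroblast and 7 endothelial markers, 1197 and 313 CPM, and control 775 the next highest, 435 and 108 CPM. Lum, Tie1, Tek and Emcn of these lists were at 0 in at least 1 library. The summed level of 4 neutrophil markers in the sorted libraries was 13.4 to 56.1 CPM, of which Csf3r alone gave 13.4 to 50.5 CPM. S100a9 and Ly6g were above 0 only in the cKO library of mouse 725. For the members named by rule, a macrophage difference that moved by over 1.5 times without 867 or 775 is given with that value.

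Start site sequence was compared with motifs of the SREBP system, since its targets are recognised by short sterol response elements that usually stand near sites for NF-Y (CCAAT) and SP1 (GC box). RefSeq start sites on GRCm38.p6 were matched for 24 of the 29 members by symbol, giving 32 windows of 300 bases (250 before and 50 after the start). Fdps, Fdft1, Sqle, Stard4 and Abcg1 were not matched. Both strands were searched, and no motif match shared a base with a match of another motif in the windows shown. The sterol response element letters TCACNCCAC occurred in 1 member window, that of Hmgcs1, 137 bases before the start, and in 1.24% of all 32851 windows. CCAAT occurred in 22 of the 32 member windows, from 21 of 24 members, and in 37.4% of all windows. The GC box GGGCGG occurred in 26 of 32 member windows, from 22 members, and in 35.7% of all windows. The E-box CACGTG, which SREBP-1 can also bind, occurred in 7 member windows, from 6 members, and in 7.15% of all windows. These matches are letters in a window and were not tested for binding. The 250 bases before the start, 5′ to 3′ on the strand of the gene, are shown for a pair of early synthesis enzymes, the feedback regulator Insig1 and the exporter Abca1, with matches to any of the 4 motifs on either strand in capitals.
Hmgcs1 (chr13:119690101-119690350, plus strand): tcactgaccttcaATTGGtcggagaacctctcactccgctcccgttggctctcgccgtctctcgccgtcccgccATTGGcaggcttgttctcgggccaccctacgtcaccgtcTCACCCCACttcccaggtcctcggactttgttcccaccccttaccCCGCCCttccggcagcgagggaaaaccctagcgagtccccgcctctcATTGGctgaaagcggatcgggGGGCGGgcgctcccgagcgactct
Idi1 (chr13:8885356-8885605, plus strand): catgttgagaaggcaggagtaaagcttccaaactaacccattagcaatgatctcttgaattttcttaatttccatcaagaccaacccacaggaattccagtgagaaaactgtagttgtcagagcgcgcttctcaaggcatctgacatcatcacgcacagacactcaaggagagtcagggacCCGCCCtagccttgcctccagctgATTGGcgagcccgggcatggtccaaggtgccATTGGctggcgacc
Insig1 (chr5:28071162-28071411, plus strand): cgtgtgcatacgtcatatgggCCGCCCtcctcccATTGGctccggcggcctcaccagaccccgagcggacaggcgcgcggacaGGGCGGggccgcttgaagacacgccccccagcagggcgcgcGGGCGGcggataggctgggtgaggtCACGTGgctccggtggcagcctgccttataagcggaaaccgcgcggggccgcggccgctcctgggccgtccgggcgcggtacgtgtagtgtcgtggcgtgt
Abca1 (chr4:53159896-53160145, minus strand): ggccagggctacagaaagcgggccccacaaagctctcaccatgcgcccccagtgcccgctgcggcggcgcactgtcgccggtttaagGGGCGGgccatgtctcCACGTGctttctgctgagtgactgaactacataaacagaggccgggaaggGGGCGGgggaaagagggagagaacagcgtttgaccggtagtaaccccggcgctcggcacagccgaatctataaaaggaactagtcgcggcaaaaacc
Hmgcs1, the enzyme that makes HMG-CoA, held the sterol response element in capitals together with CCAAT and GC box matches. Idi1, which isomerises the isoprene unit, held a GC box and 2 CCAAT matches. Insig1 held 3 GC boxes, a CCAAT match and an E-box, and Abca1 held 2 GC boxes and an E-box with no CCAAT match.

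Macrophages and tumors differed in which members were most highly expressed. For comparison between genes, CPM was divided by the length of each gene's exons in kilobases (GENCODE vM21), and levels in this paragraph are means over all libraries of a table on that scale. In the sorted cells the cholesterol exporter Abca1 was the highest member at 63.4 CPM per kb (range 39.9 to 86.8 over 6 libraries). Srebf1, which encodes SREBP-1, followed at 51.4 CPM per kb (39.996 to 60.6), within the range of Abca1. Soat1, which esterifies cholesterol for storage, was at 34.4 CPM per kb, and the feedback regulator Insig1 at 25.2. Hmgcs1, the highest synthesis enzyme, was at 20.5 CPM per kb, close to the exporter Abcg1 at 19.2. In whole tumors Srebf1 was highest at 60.04 CPM per kb (50.9 to 79.95 over 4 libraries), above the range of every other member. Hmgcs1 came next at 25.9, then Insig1 at 16.9 and Idi1 at 14.9 CPM per kb. The lowest members were the same kinase and reductase in both tables: Mvk, which phosphorylates mevalonate, at 1.05 CPM per kb in macrophages and 0.464 in tumors, and the sterol reductase Tm7sf2 at 0.580 in macrophages and 0.188 in tumors. Lbr, the other reductase of that step, was at 11.1 CPM per kb in macrophages and 9.07 in tumors.

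**Figure D1:**
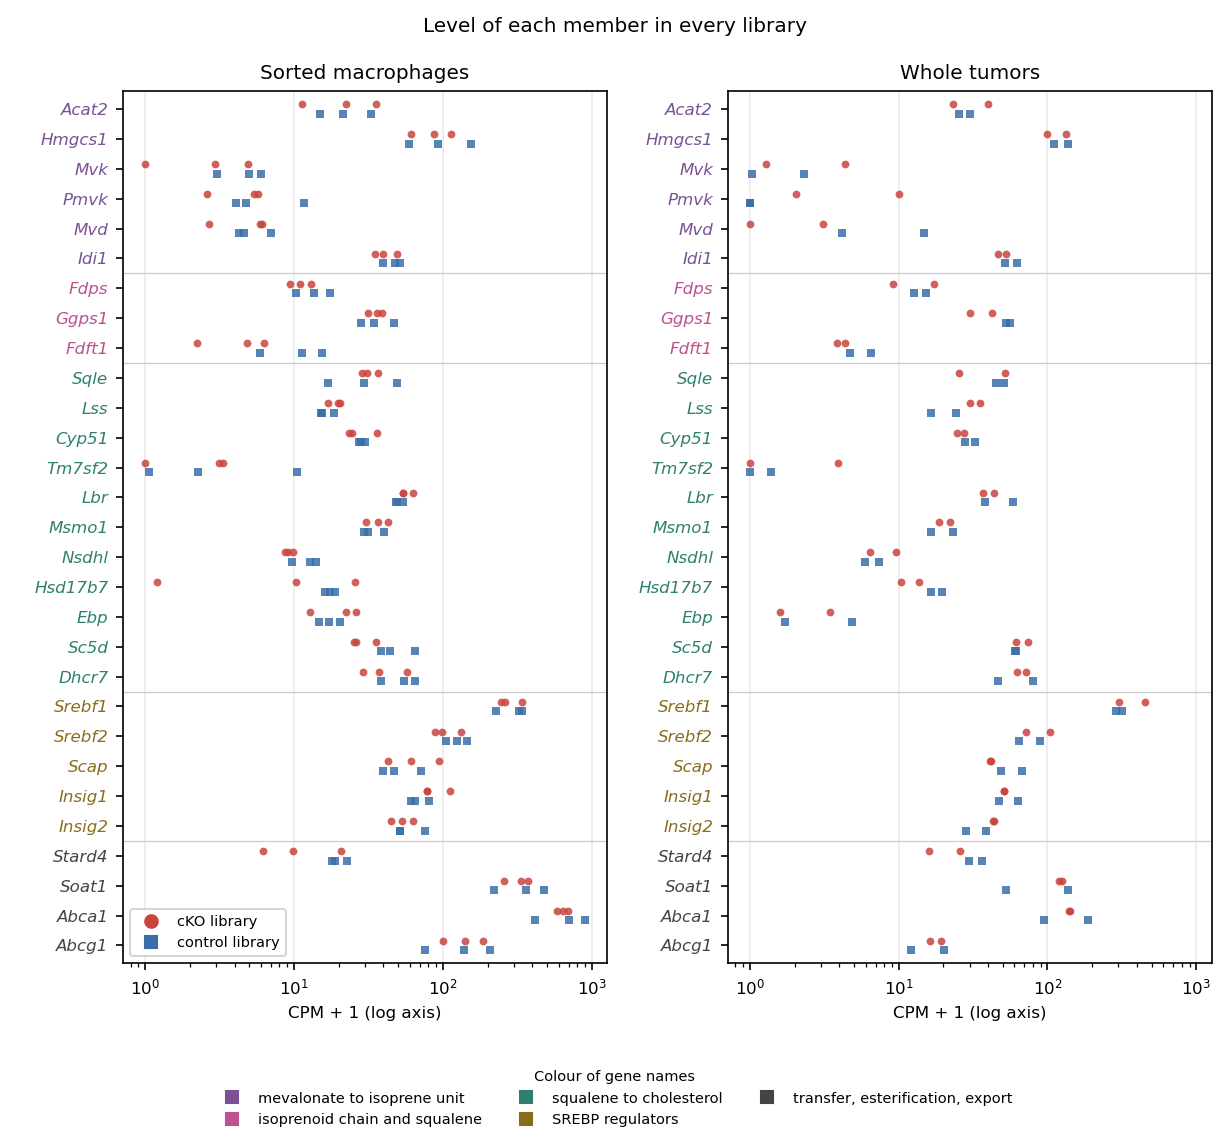
Level of each of the 29 members in every library, as CPM + 1 on a log axis. Red circles are libraries labelled cKO and blue squares are controls, in sorted macrophages (left, 3 and 3) and whole tumors (right, 2 and 2). Abca1 lies between 413 and 899.7 CPM in macrophages, while Mvk, Pmvk, Mvd and Tm7sf2 lie low and spread widely in both tables.

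Spread between libraries differed widely among members and was widest in weakly expressed ones. In macrophages the coefficient of variation over 6 libraries was lowest for Lbr at 10.1% and Lss, which closes the sterol rings, at 13.1%. It was highest for Tm7sf2 at 139%, with a range of 0 to 9.48 CPM, and for Fdft1, the squalene synthase, at 72.7%. In tumors the lowest was Sc5d at 10.4% and the highest Pmvk, the second kinase of the mevalonate steps, at 174%. Some values are uncertain because reads can be split between genes. Of 75-base stretches, 33.9% of Acat2 occur in transcripts of another gene (Acat3 among them), 23.6% of Idi1, 23.5% of Fdps and 21.8% of Fdft1, whose exons overlap those of Ctsb on the other strand. Exons of Fdps overlap Gm43738 over 26.7% of their bases and those of Tm7sf2 overlap Vps51 over 12.1%, in both cases on the same strand. Exons of Scap, Hmgcs1 and Lbr overlap other genes over 13.2%, 12.1% and 10.7%. The strand setting of the counting is not given in the sources used here, so overlapping antisense genes cannot be told apart.

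Genes for cholesterol storage and export were far higher in sorted macrophages than in whole tumors, while synthesis enzymes went both ways by the library total. The tables were normalized separately, and no test was made between them. Abcg1 was at 140.2 ± 49.5 CPM in macrophages and 15.95 ± 3.64 CPM in tumors (SD, n = 6 and 4), a ratio of 8.79. Abca1 was at 657 ± 160.1 CPM in macrophages and 139 ± 37.6 CPM in tumors, a ratio of 4.72. Both exporters and Soat1 were higher in the macrophage library of each of the 4 mice with both libraries. Soat1 was at 337 ± 90.6 CPM in macrophages and 108 ± 37.8 CPM in tumors, a ratio of 3.12. Within mice 725, 746, 706 and 720 the log2 difference of CPM + 1 was 3.10, 3.27, 3.52 and 3.36 for Abcg1, a narrow range. The same differences were 2.05, 2.32, 2.91 and 2.28 for Abca1. Macrophage markers moved with these genes, at sums of 1232 to 3129 CPM in macrophages against 141 to 170 CPM in tumors. The luminal epithelial sum was also higher in the sorted libraries, at 4351 to 5857 CPM against 1796 to 2047 CPM in tumors. The part of either marker list in the result was not tested. More cells of a type and more RNA per cell cannot be told apart in bulk libraries.

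Of the 28 members compared, 6 had every macrophage library above every tumor library, 0 had every macrophage library below, and 22 overlapped. Over the 13728 genes compared, 19.9% lay above and 4.13% below in the same sense, so the share of members above (21.4%) was near that of all genes. The 6 were Abca1, Abcg1, Soat1, Insig2 and the sterol enzymes Ebp and Msmo1. Ebp, an isomerase of the late sterol steps, was at 17.9 ± 4.96 CPM in macrophages and 1.92 ± 1.56 CPM in tumors, a ratio of 9.34, although the tumor level is in the range where reads are often missed. Msmo1, the methyl sterol oxidase, was at 34.2 ± 5.62 CPM in macrophages and 19.1 ± 3.17 CPM in tumors. Insig2, the second INSIG protein, was at 55.6 ± 10.98 CPM in macrophages and 37.4 ± 7.12 CPM in tumors. The 19 synthesis enzymes compared had a median log2 difference of -0.11, against 0.35 for the 13728 genes compared, and 8 of 19 were higher in macrophages. Within the 4 mice with both libraries, 6 of the 19 were lower in the macrophage library of every mouse (Hmgcs1, Idi1, Lss, Hsd17b7, Sc5d and Dhcr7), 2 were higher in every mouse (Msmo1 and Ebp), and 11 were mixed. Of all genes compared, 11.4% were lower and 34.4% higher in every mouse. Sc5d differed by -1.06, -1.23, -0.66 and -0.48 in mice 725, 746, 706 and 720, and Lss by -1.06, -0.57, -0.38 and -0.088. Hsd17b7 differed by only -0.0042 to -0.060 in 3 of the mice. Stard4, which carries free sterol between membranes, was likewise lower in the macrophage library of all 4 mice, with log2 differences of -1.39, -1.36, -0.72 and -0.93. It averaged 15.1 ± 6.54 CPM in macrophages and 25.96 ± 8.40 CPM in tumors.

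The choice of total mattered for these levels. The share of reads in protein-coding genes was 67.7% to 80.1% in sorted cells and 49.7% to 56.5% in whole tumors. When libraries were scaled to protein-coding genes, the median log2 difference of all compared genes was -0.092 in place of 0.35, and that of the 28 members -0.25 in place of 0.26. Abcg1, Abca1, Soat1 and Ebp then still lay above the tumor range, with ratios of 6.07, 3.26, 2.20 and 6.55. Msmo1 and Insig2 overlapped on that scale. Every macrophage library then lay above every tumor library for 4 of 28 members, against 10.7% of all genes compared. Every macrophage library lay below every tumor library for 5 of 28 members, against 12.4% of all genes. The 5 below were Srebf1, the early enzyme Idi1, the cyclase Lss, and Sc5d and Dhcr7, which act late in the sterol steps. Sc5d, for example, was at 51.8 ± 23.5 CPM in macrophages and 121 ± 13.4 CPM in tumors when scaled this way, against 38.3 ± 14.8 CPM in macrophages and 63.6 ± 6.63 CPM in tumors by the library total. The median of the 19 synthesis enzymes was -0.61 on that scale. Within the 4 mice with both libraries, 10 of the 19 were then lower in the macrophage library of every mouse. Only 1, Ebp, was higher in every mouse. Of all genes compared, 25.4% were lower and 19.0% higher in every mouse on that scale.

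**Figure D2:**
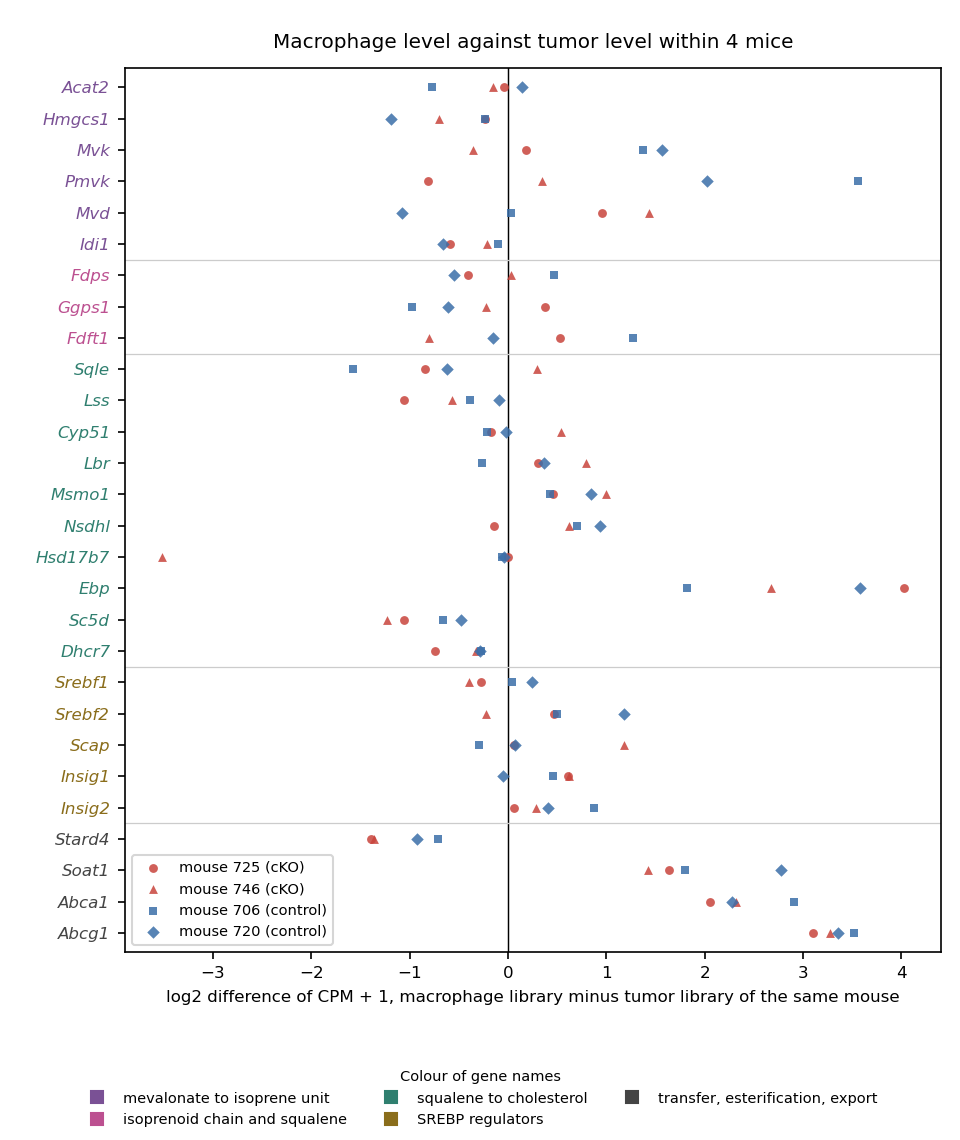
Log2 difference of CPM + 1 between the macrophage and the tumor library of the same mouse, for the 28 members compared and the 4 mice with both libraries, scaled by the library total. Soat1, Abca1, Abcg1, Ebp, Msmo1 and Insig2 lie to the right of 0 in all 4 mice. Stard4, Hmgcs1, Idi1, Lss, Hsd17b7, Sc5d and Dhcr7 lie to the left in all 4, and 11 of the 19 synthesis enzymes fall on both sides.

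The comparison of macrophages labelled cKO with control macrophages asks how these genes respond in tumor macrophages when Cxcr4 is to be deleted by LysM-Cre. No member passed the test, and most synthesis enzymes lay slightly lower in the libraries labelled cKO. All 29 members had a mean of at least 1 CPM and were tested among 16304 genes. With limma, 0 members and 0 of 16304 genes (0.0%) had an adjusted p under 0.05, and the adjusted p was 0.9998 for every member. At an unadjusted p under 0.05 there were 428 genes, among them 1 member, Sc5d. The log2 difference was negative for 21 of 29 members (72.4%), against 45.3% of all genes tested. Its median was -0.14 over the members and 0.045 over all genes. By role, it was negative for 6 of 6 enzymes that lead to the isoprene unit, for 3 of 3 isoprenoid chain enzymes (Fdps, Ggps1 and Fdft1) and for 6 of 11 that lead to cholesterol. It was negative for 3 of 5 SREBP regulators and 3 of 4 genes of transfer, storage and export. The median over the members was -0.26 without control 775, with 19 of 29 negative, and -0.043 without control 720, with 16 of 29 negative. Genes in a pathway can vary together, so these counts and medians are descriptions of 6 libraries.

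Sc5d, the desaturase that acts shortly before cholesterol is reached, was the member with the lowest unadjusted p. It was at 34.8, 25.1 and 24.2 CPM in macrophages labelled cKO (mice 725, 746 and 867), against 37.4, 43.5 and 64.5 CPM in control macrophages (706, 720 and 775). All 3 libraries labelled cKO lay below all 3 controls, which held for 3.45% of all genes tested and for 1 of 29 members, while the reverse held for 3.78% of genes and 0 members. The log2 difference was -0.75 (SE 0.33, 95% interval -1.44 to -0.055, adjusted p = 0.9998 by limma), and -0.53 without control 775. Its partner in the last steps, the reductase Dhcr7, was at 36.04, 56.6 and 28.02 CPM in macrophages labelled cKO and 37.2, 64.4 and 54.04 CPM in control macrophages. The groups overlapped for Dhcr7, with a log2 difference of -0.38 (SE 0.33) that was -0.16 without cKO 867 and -0.66 without cKO 746.

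Larger differences were found in weaker members with wide errors. Hsd17b7, a reductase of sterol demethylation, was at 9.39, 0.200 and 24.7 CPM in macrophages labelled cKO, against 17.8, 15.1 and 16.5 CPM in control macrophages. The low value of mouse 746 was close to the 3-read level of 0.150 CPM in that library, and mouse 867 was the highest of the 6. The log2 difference of -1.35 (SE 0.76) was -0.092 without mouse 746 and -2.30 without mouse 867 (limma adjusted p = 0.9997). Fdft1 was at 5.29, 1.22 and 3.84 CPM in macrophages labelled cKO, against 10.4, 4.90 and 14.5 CPM in control macrophages. Its groups overlapped by a single pair, the control 720 and the cKO 725, with a log2 difference of -1.31 (SE 0.68, 95% interval -2.72 to 0.089). Reads that overlap Ctsb, a lysosomal protease gene, may be counted in either gene. Stard4 was at 8.90, 5.25 and 19.9 CPM in macrophages labelled cKO, against 17.02, 18.03 and 21.7 CPM in control macrophages. Mice 725 and 746 lay below all controls and mouse 867 among them, for a log2 difference of -0.86 (SE 0.50). It was -0.46 without cKO 746 and -1.33 without cKO 867 (limma adjusted p = 0.9997). Mvk was at 3.93, 0 and 1.95 CPM in macrophages labelled cKO, against 5.002, 2.05 and 3.9999 CPM in control macrophages, with a log2 difference of -0.88 (SE 0.81). The 95% interval for Mvk was -2.55 to 0.79, and leaving out cKO 746, the library at 0, gave -0.24.

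For each of the remaining enzymes the groups overlapped. Among the enzymes that lead to the isoprene unit, the log2 difference lay between -0.50 for Pmvk and -0.067 for Acat2, which starts the pathway. Hmgcs1 averaged 86.6 ± 26.6 CPM in macrophages labelled cKO and 101 ± 47.9 CPM in control macrophages (SD, n = 3 each), and Idi1 averaged 40.6 ± 7.27 CPM in macrophages labelled cKO and 45.4 ± 6.14 CPM in control macrophages. The decarboxylase Mvd was at 3.88 ± 1.89 CPM in macrophages labelled cKO and 4.32 ± 1.51 CPM in control macrophages. Fdps, which makes farnesyl diphosphate, differed by -0.30, and Ggps1, which makes the longer chain used to anchor proteins in membranes, by -0.021. Of the enzymes after squalene, the log2 difference was positive for Sqle (0.13), Lss (0.21), Lbr (0.17), Msmo1 (0.13) and Ebp (0.17). It was negative for the demethylase Cyp51 (-0.059), for Nsdhl (-0.39), which works beside Hsd17b7, and for Tm7sf2 (-0.42). The summed level of all 20 synthesis enzymes was 503, 476 and 472 CPM in the macrophages labelled cKO, against 483, 500.0 and 654 CPM in control macrophages 706, 720 and 775.

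SREBP regulators showed small differences in both directions. Insig1, itself a target of SREBP-2, was at 76.8, 77.5 and 110.4 CPM in macrophages labelled cKO, against 63.7, 59.9 and 79.997 CPM in control macrophages. Only the control of mouse 775 reached into the cKO range, and the log2 difference was 0.36 (SE 0.28, 95% interval -0.21 to 0.94), or 0.19 without cKO 867. Srebf2, which encodes the SREBP that mainly drives cholesterol synthesis, was at 97.4, 87.9 and 132 CPM in macrophages labelled cKO, against 124, 144 and 104 CPM in control macrophages. Its groups overlapped, with a log2 difference of -0.24 (SE 0.26) that was -0.12 without cKO 746 and -0.41 without cKO 867. Srebf1, which encodes the form more tied to fatty acid synthesis, was at 247, 342 and 262 CPM in macrophages labelled cKO, against 324, 339 and 225 CPM in control macrophages. Its difference of -0.054 (SE 0.25) changed sign without cKO 725 (0.037), control 706 (0.023) or control 720 (0.055). It was -0.0040 without cKO 867 and -0.24 without control 775. Scap, the SREBP escort, was at 41.9, 93.7 and 60.2 CPM in macrophages labelled cKO, against 38.9, 70.3 and 46.1 CPM in control macrophages. The log2 difference of 0.30 (SE 0.33) rested on mouse 746 and was 0.0013 without it. Insig2 was at 43.8, 52.5 and 61.8 CPM in macrophages labelled cKO, against 50.8, 50.3 and 74.6 CPM in control macrophages, with a log2 difference of -0.14 (SE 0.30) that was 0.046 without control 775 and -0.26 without cKO 867.

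**Figure D3:**
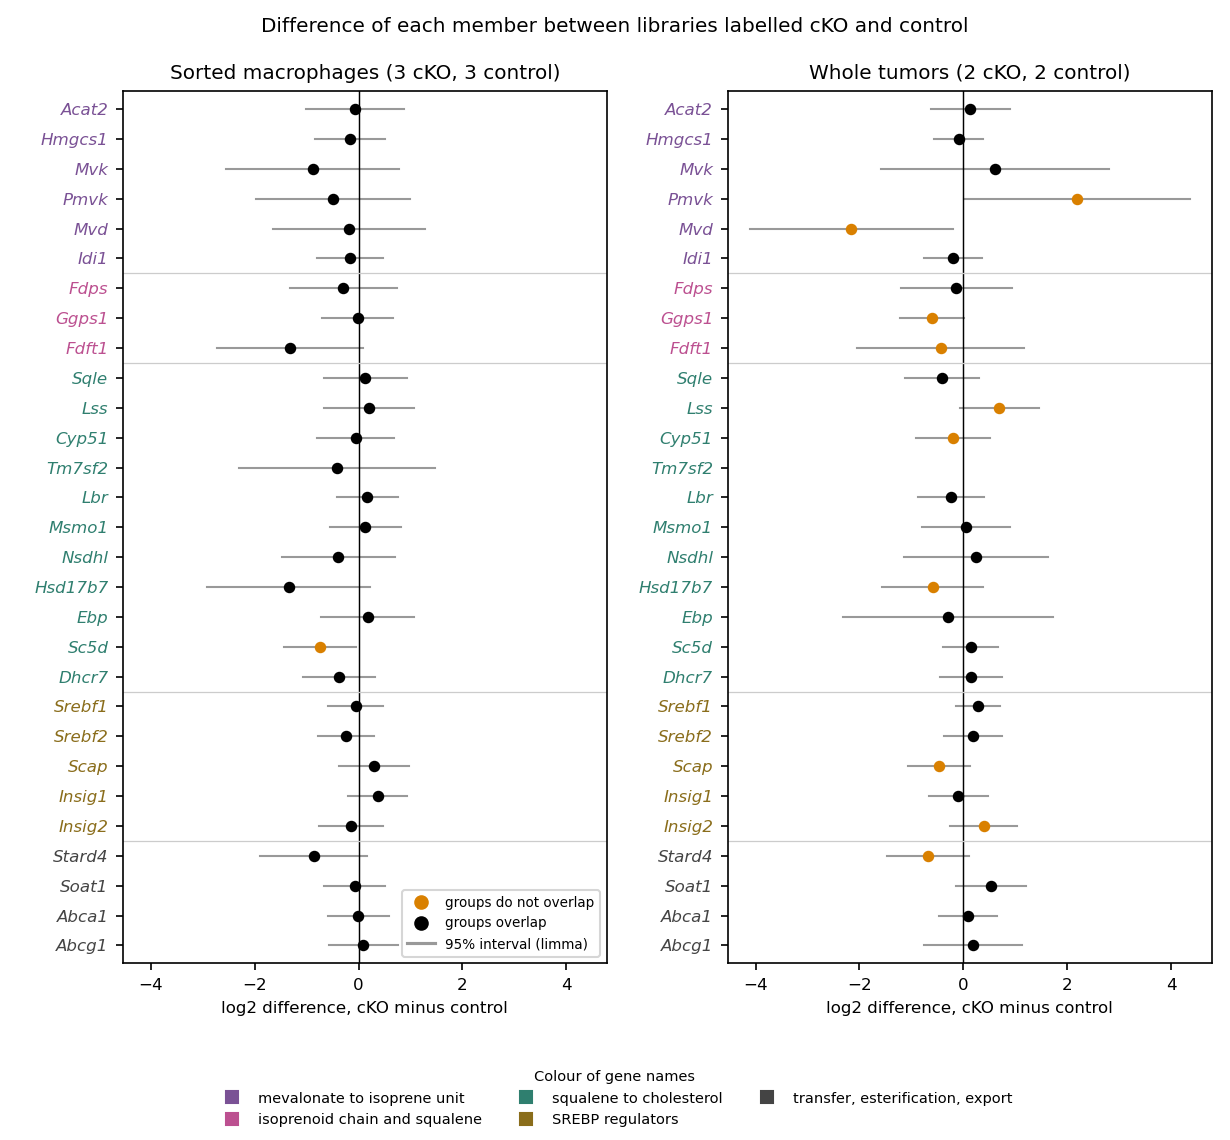
Log2 difference of CPM + 1, cKO minus control, for each member in macrophages (left) and tumors (right). Points are limma estimates and lines their 95% intervals. Orange points mark members whose groups did not overlap, which are Sc5d in macrophages and 10 members in tumors, and Tm7sf2 was not tested in tumors. All lines cross 0 except those of Sc5d in macrophages and of Mvd and Pmvk in tumors, and no member had an adjusted p under 0.05.

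The exporters and Soat1 were nearly equal between the groups, and their values depended on control 775. Abca1 was at 584, 698 and 642 CPM in macrophages labelled cKO, against 707, 899.7 and 413 CPM in control macrophages, a log2 difference of -0.0027 (SE 0.29, 95% interval -0.59 to 0.59). Abcg1 was at 139.9, 184 and 99.3 CPM in macrophages labelled cKO, against 137, 206 and 74.8 CPM in control macrophages, a log2 difference of 0.091 (SE 0.32). Soat1 was at 372, 337 and 258 CPM in macrophages labelled cKO, against 475, 362 and 219 CPM in control macrophages, a log2 difference of -0.074 (SE 0.28). For all 3 genes control 775 was the lowest of the 6 libraries, and 720 or 706 the highest. That library also had the lowest macrophage marker sum and the highest sum of the 20 synthesis enzymes, 654 CPM. Without it the log2 differences were -0.32 for Abca1, -0.29 for Abcg1 and -0.38 for Soat1. Signs also turned elsewhere. For Abca1, leaving out cKO 725 gave 0.063, leaving out control 706 gave 0.069 and leaving out control 720 gave 0.24. Without cKO 867 it was -0.0056. For Abcg1 the difference was -0.12 without cKO 746 and 0.32 without cKO 867, and for Soat1 0.077 without cKO 867 and 0.18 without control 706. Without control 775, 3 genes of the whole table passed the limma threshold, and none was a member.

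**Figure D4:**
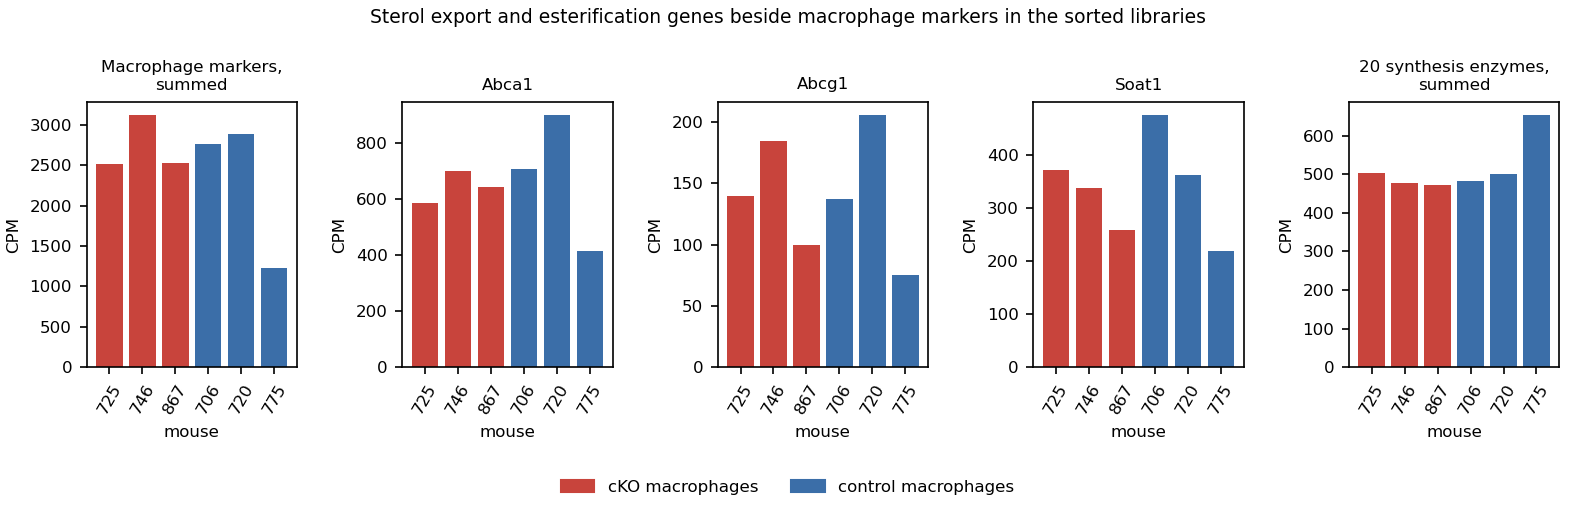
Summed CPM of 12 macrophage markers, CPM of Abca1, Abcg1 and Soat1, and summed CPM of the 20 synthesis enzymes in each sorted library, labelled by mouse. Red bars are macrophages labelled cKO and blue bars are controls. Control 775 is lowest in the first 4 panels, at 1232 CPM for the markers, and highest in the last, at 654 CPM.

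The same comparison in whole tumors, which sums all cells of the tumor, split the members evenly. Of 28 members tested, 14 had a negative and 14 a positive log2 difference, with a median of -0.019, against 0.089 over all 14630 genes tested, of which 43.4% were negative. Tm7sf2, at a mean of 0.83 CPM, was under the filter and was not tested. With limma, 0 members and 0 of 14630 genes (0.0%) had an adjusted p under 0.05 (lowest over all genes 0.492). At an unadjusted p under 0.05 there were 856 genes, among them 2 members, Mvd and Pmvk. Pmvk passed the filter only through the libraries labelled cKO, so its p is no support for a difference. With 2 libraries a group, both of the libraries labelled cKO lay below both controls for 7 of 28 members, against 14.3% of all genes. They lay above both controls for 3 of 28 members, against 21.2% of all genes. The 7 were Mvd, Ggps1, Fdft1, Cyp51, Hsd17b7, Scap and Stard4, and the 3 were Pmvk, Lss and Insig2. Leaving out control 706 gave a median of -0.14, and leaving out cKO 746 gave 0.015. Tumors labelled cKO also had lower fibroblast marker sums, 351 and 463 CPM against 610.5 and 712 CPM in control tumors (7 markers, none at 0). The largest part of that difference was in Col3a1, at 153 and 183 CPM against 316 and 343 CPM in control tumors. Col1a2, Lum and Dcn were also lower in both tumors labelled cKO, and Col1a1 and Pdgfra overlapped. Pdpn went the other way, at 19.5 and 17.9 CPM against 15.1 and 7.77 CPM in control tumors. Sums of 4 basal epithelial markers were higher in tumors labelled cKO, 78.5 and 70.3 CPM against 42.8 and 51.8 CPM in control tumors. That difference was in Trp63, at 63.01 and 60.3 CPM against 30.2 and 35.7 CPM in control tumors. Krt5 and Krt14 overlapped, and Krt17 was lower in tumors labelled cKO, at 1.65 and 1.53 CPM against 1.87 and 1.98 CPM. The part of both marker lists in the member differences was not tested.

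The largest tumor differences were in Mvd and Pmvk, each with at least 1 library at 0. Mvd was at 2.12 and 0 CPM in tumors labelled cKO (mice 725 and 746), against 3.19 and 13.8 CPM in control tumors (706 and 720). The log2 difference was -2.16 (SE 0.92, adjusted p = 0.833 by limma), -1.06 with a pseudocount of 5 and -1.25 without control 720. Pmvk, the enzyme just before Mvd, was at 9.12 and 1.05 CPM in tumors labelled cKO and was listed at 0 in both control tumors. Its fitted difference was 2.19 with a pseudocount of 1, 5.02 with 0.1 and 0.89 with 5, and the macrophages of the same control mice held 10.8 and 3.07 CPM. Better measured was Ggps1, at 29.3 and 41.1 CPM in tumors labelled cKO, against 54.7 and 52.02 CPM in control tumors. Both libraries labelled cKO lay below both controls, with a log2 difference of -0.61 (SE 0.29, adjusted p = 0.833 by limma) that was -0.37 without cKO 725. Lss was at 34.1 and 29.1 CPM in tumors labelled cKO, against 23.4 and 15.5 CPM in control tumors, a log2 difference of 0.70 (SE 0.36) that was 0.41 without control 720. Sc5d, lower in all macrophages labelled cKO, was at 73.5 and 60.3 CPM in tumors labelled cKO and 59.7 and 60.9 CPM in control tumors, a log2 difference of 0.14 (SE 0.25). Hmgcs1 averaged 115 ± 24.8 CPM in tumors labelled cKO and 122 ± 18.5 CPM in control tumors (SD, n = 2 each). The summed level of the 20 synthesis enzymes was 599 and 521 CPM in tumors labelled cKO, against 576 and 613 CPM in control tumors.

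Among the regulators, Scap was at 40.1 and 40.96 CPM in tumors labelled cKO, against 47.9 and 66.9 CPM in control tumors, a log2 difference of -0.47 (SE 0.28) that was -0.24 without control 720. Srebf1 was at 299.7 and 450.5 CPM in tumors labelled cKO, against 316 and 287 CPM in control tumors, and the difference of 0.29 (SE 0.20) became -0.0063 without cKO 746. Srebf2 was at 70.3 and 103 CPM in tumors labelled cKO, against 87.8 and 63.4 CPM in control tumors. Its groups overlapped, and the difference of 0.18 (SE 0.26) was -0.084 without cKO 746 and -0.047 without control 720. The INSIG genes parted: Insig2 was at 42.03 and 42.8 CPM in tumors labelled cKO and 27.3 and 37.6 CPM in control tumors, a log2 difference of 0.39 (SE 0.30) that was 0.17 without control 706. Insig1 was at 50.1 and 50.1 CPM in tumors labelled cKO and 46.2 and 62.2 CPM in control tumors, a difference of -0.097 (SE 0.27) that was 0.11 without control 720. The unlike signs of the INSIG genes were not tested against each other.

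Of the genes of transfer, storage and export, Stard4 had no overlap between the groups. It was at 25.004 and 15.1 CPM in tumors labelled cKO, against 28.6 and 35.2 CPM in control tumors, a log2 difference of -0.68 (SE 0.37, adjusted p = 0.833 by limma) that was -0.33 without cKO 746. In macrophages, where its groups overlapped, the difference was -0.86 (limma adjusted p = 0.9998), from a set of mice that includes those of the tumors. Soat1 was at 119 and 125 CPM in tumors labelled cKO, against 135 and 52.05 CPM in control tumors. The difference of 0.53 (SE 0.32) rested on control 720 and was -0.15 without it. Abca1 was at 139.9 and 139 CPM in tumors labelled cKO, against 93.1 and 185 CPM in control tumors, a difference of 0.086 (SE 0.26) that was -0.031 when scaled to protein-coding genes and -0.41 without control 706. The controls stood on either side of the tumors labelled cKO. Abcg1 was at 15.4 and 18.2 CPM in tumors labelled cKO, against 11.1 and 19.2 CPM in control tumors, a difference of 0.18 (SE 0.45) that was -0.19 without control 706.

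Other genes of the pathway were read from 5 lists, and limma called 0 of them in either table. In macrophages, the log2 difference was positive for 3 and negative for 3 of 6 further sterol synthesis genes, with a median of -0.0028. Of 7 SREBP processing genes, 4 were positive and 3 negative (median 0.13). Mbtps2, a protease that frees SREBPs from the membrane, was at 47.99, 29.9 and 53.05 CPM in macrophages labelled cKO, against 83.6, 56.1 and 56.9 CPM in control macrophages, all lower. Of 12 genes of uptake and lysosomal release, 9 were positive and 3 negative (median 0.085). The 15 fatty acid targets of SREBP-1 were positive in 5 and negative in 10 cases (median -0.11). Scd2, a desaturase of fatty acids, was at 323, 325 and 356 CPM in macrophages labelled cKO, against 463, 427 and 511 CPM in control macrophages, with no overlap and a log2 difference of -0.48 and an SE of 0.24 (limma adjusted p = 0.9998). Of 11 genes of the liver X receptor axis, 8 were positive and 3 negative (median 0.14). Lpcat3, which remodels membrane phospholipids, averaged 42.6 ± 13.99 CPM in macrophages labelled cKO and 56.2 ± 5.18 CPM in control macrophages with no overlap (SD, n = 3 each). Of all genes tested in macrophages, 45.3% were negative, with a median of 0.045. With no overlap, 1 of 7 SREBP processing genes was lower and 1 higher in libraries labelled cKO. Also lower were 1 of 15 fatty acid targets and 1 of 11 genes of the liver X receptor axis. Over all genes tested, 3.45% were lower and 3.78% higher in this sense.

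In tumors, positive differences were found for 3 of 6 further sterol synthesis genes, 6 of 7 SREBP processing genes, 8 of 11 genes of uptake and release, 10 of 15 fatty acid targets and 8 of 11 genes of the liver X receptor axis. The medians were 0.043, 0.32, 0.19, 0.21 and 0.33, against 0.089 for all genes tested, of which 43.4% were negative. In the same order, 1, 3, 4, 4 and 2 genes had both libraries labelled cKO above both controls. Both lay below for 1, 0, 2, 3 and 1 genes. Over all genes tested, 21.2% lay above and 14.3% below in this sense. Vldlr, a lipoprotein receptor, was at 97.95 and 109 CPM in tumors labelled cKO, against 57.2 and 55.4 CPM in control tumors, a log2 difference of 0.86 (SE 0.23, adjusted p = 0.717 by limma). Rxra, the partner receptor of the liver X receptors, was at 33.8 and 55.99 CPM in tumors labelled cKO and 16.7 and 24.5 CPM in control tumors. Thrsp, a lipogenic gene, was at 12.6 and 15.96 CPM in tumors labelled cKO and 36.1 and 28.1 CPM in control tumors. Acly, which supplies the acetyl-CoA for sterols and fatty acids, was at 118 and 95.9 CPM in tumors labelled cKO and 151 and 158 CPM in control tumors. Rxra was thus higher, and Thrsp and Acly were lower, in both tumors labelled cKO, without passing the test. Among the other genes with no overlap between groups that the naming rule took were Rnf145, Pgrmc1, Mylip, Npc1, Fads1, Me1 and Arl4c, all higher in tumors labelled cKO by 0.30 to 0.66 log2 units. Tmem97, which binds sterols, and the scavenger receptor Msr1 were lower in tumors labelled cKO, with log2 differences of -1.25 and -1.08.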

How the data were processed

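RNA was sequenced from 6 libraries of sorted tumor macrophages and 4 libraries of whole mammary tumors. Per the labels' protocols, ribosomal RNA was blocked with FastSelect oligonucleotides, without selection of poly(A) RNA. Reads were aligned to a build named as GRCm38 (mm10), with STAR 2.7.8a and Partek among the tools, per the submitters' processing notes. The strand setting is not given in the sources used here. The authors deposited log2 values, read from the values as log2(CPM + 1), since undoing that transform gave totals of 1e+06 for every library. Only 86.5% to 89.2% of low values were whole reads within 0.1 read, under the 95% set, so no count test was run. The test had been planned for linear values and used the deposited log2 values as they stand.

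The tests used limma 3.58.1 under R 4.3.3 (eBayes with an intensity trend), separately for each table, cKO minus control and two-sided. Genes had to average 1 CPM or more, with Benjamini-Hochberg adjustment over all genes tested and a threshold of 0.05. The code was tested on simulated data. The pseudocount is 1, so differences understate changes of weak genes. Depth was read from the steps between low values, and a gene at 0 allows up to 0.119 to 0.209 CPM (3 reads) in macrophage libraries and 0.0562 to 0.0877 CPM in tumor libraries, counting error only. Gene positions in the files matched GENCODE vM21 starts for 2.19% and 2.29% of genes, so lengths and overlaps come from that annotation by gene identifier. Replicates are different mice, numbered in the labels.

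The members and the lists of other genes were chosen with earlier results of these data known. Named members are the 8 with the lowest unadjusted p in each table and 9 regulators, carriers and exporters. Of each list of other genes, up to 4 that averaged 5 CPM or more, with no overlap between groups, were named. A few genes of these lists are not reported here. Alternatives were pseudocounts of 0.1 and 5, other filters, TMM, median-ratio and protein-coding scaling, no trend, library weights, the 4 mice with both libraries, and each library left out.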

Additional observations from a re-analysis of the deposited data

How the results depend on the processing

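No member was called by limma under any setting run, and no setting put a member past the threshold. The number of genes called in macrophages was 0 to 3 when each library was left out (3 without control 775) and 0 under every other setting, and in tumors it was 0 throughout. The macrophage member median was -0.14, and -0.067 with a mean of at least 5 CPM. Leaving out each library gave -0.26 (without control 775) to -0.043 (without control 720). The number of members with a negative difference in macrophages was 21 of 29 under every scaling, and 16 to 21 over all settings. The tumor member median was -0.019, and -0.13 with protein-coding scaling, which moved the median of all genes to -0.013, against 0.089. It ranged from -0.14 (without control 706) to 0.015 (without cKO 746) with a library left out, and was 0.054 with no filter or with a mean of at least 5 CPM, where 14 and 11 members were negative. The macrophage minus tumor median of 0.26 was -0.25 with protein-coding scaling and 0.13 with a pseudocount of 5.

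Signs turned in macrophages with library weights for Soat1 (0.011) and Abca1 (0.025), and for Abcg1 with the 4 mice that gave both libraries (-0.065). In tumors Abca1 was -0.031 with protein-coding scaling. With each library left out, the macrophage differences ranged from -0.24 to 0.055 for Srebf1, -0.32 to 0.24 for Abca1, -0.29 to 0.43 for Abcg1, -0.38 to 0.18 for Soat1 and -0.26 to 0.046 for Insig2. The tumor differences ranged from -0.0063 to 0.58 for Srebf1, -0.084 to 0.45 for Srebf2, -0.41 to 0.58 for Abca1, -0.19 to 0.55 for Abcg1, -0.15 to 1.21 for Soat1 and -0.31 to 0.11 for Insig1. The cause was not tested. The other 9 of 14 macrophage and 7 of 13 tumor members named by rule kept their sign with every library left out.

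With a library left out of the tumors, a group is a single sample, which is assumed to vary like the other group. No paired analysis was possible because mice labelled cKO and controls share no number and the partners of the size-matched pairs are not named. Members under about 5 CPM are often missed in a library, and 3 or 2 mice a group leave intervals that reach past 2-fold for many members.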

Other observations

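Cd36, a scavenger receptor that takes up fatty acids and oxidised lipoproteins, was the gene of the uptake list with the lowest unadjusted p in macrophages, and is named after its values were seen. It was at 222, 133 and 603 CPM in macrophages labelled cKO (mice 725, 746 and 867), against 135, 136 and 192 CPM in control macrophages (706, 720 and 775), with a log2 difference of 0.77 (SE 0.37, adjusted p = 0.9998 by limma). The groups overlapped, and the highest value stood in the library of mouse 867, which also had the highest fibroblast and endothelial marker sums. Its adipocyte marker sum was also the highest, 46.02 CPM against 6.18 to 20.96 CPM in the other 5 libraries (5 of 7 markers listed, with Plin1, Cidec and Cfd at 0 in at least 1 library). Fabp4 alone gave 35.6 CPM of the sum in the library of mouse 867. Plin1 and Cfd were also highest there, while Pparg was lowest, at 1.79 CPM against 2.91 to 8.80 CPM, and Cidec was at 0. Endothelial cells and adipocytes also express Cd36, and the part of those cells in the Cd36 value was not tested.

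Trib1, a pseudokinase that is abundant in macrophages, was at 799, 925 and 981 CPM in macrophages labelled cKO and 557, 1143 and 598 CPM in control macrophages, with groups that overlapped, and at 147 and 188 CPM in tumors labelled cKO against 160 and 158 CPM in control tumors.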
